A study of Mus musculus with 8 samples.

Results

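The Nduf genes encode the nuclear subunits of mitochondrial complex I and the Ndufaf factors that build it. All 46 protein-coding genes of the deposited table whose Ensembl identifier carries a symbol starting with Nduf in the GENCODE M21 annotation were taken, out of 26589 genes in the table. By textbook role, 7 encode core subunits, 29 accessory subunits and 8 assembly factors. The remaining 2 are Ndufa4, now assigned to complex IV, and its paralog Ndufa4l2. RNA was measured in 8 libraries of B cells from spleens of Tiger mice, an IL-10-eGFP reporter strain, 4 of sorted IL-10+ cells and 4 of sorted IL-10- cells. Both groups came from cultures given lipopolysaccharide (LPS), a bacterial activator of B cells, at 3 µg/ml for 48 h, and the reporter gate separated them. The labels also hold a treatment tag of untreated, which the protocols contradict, and the protocols were followed. The age and number of mice, and what a replicate number stands for, were not found in the labels, and the spread between libraries may be partly technical. The series title names oxidative phosphorylation and IL-10 production as the subject, and the comparison asks whether RNA of complex I genes differs between the sorted groups.

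Complex I is the largest enzyme of the respiratory chain. Its matrix arm takes electrons from NADH and passes them along iron-sulfur clusters to ubiquinone, and its membrane arm pumps protons across the inner mitochondrial membrane. The catalytic core is conserved from bacteria and is encoded partly in the nucleus and partly in mitochondrial DNA (the mt-Nd genes). Accessory subunits surround the core, and assembly factors act on intermediates and are not part of the finished enzyme.

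Values are FPKM, the authors' reads scaled to gene length and to the library total, and 4 values in a row stand for replicate numbers 1, 2, 3 and 4. Changes are log2 changes of FPKM + 1, IL-10+ over IL-10-, given with their standard error (SE), fitted by limma over the 11329 genes that reached 1 FPKM in at least 4 libraries. A call means a p under 0.05 after Benjamini-Hochberg adjustment over all of them. Of the 46 members, 44 passed this filter, and Ndufb2 and Ndufa4l2 did not. The libraries held 27380399 to 29968286 reads, as recovered from the FPKM steps. Il10 had 32.01, 44.4, 35.2 and 35.8 FPKM in IL-10+ libraries, against 1.28, 2.86, 3.77 and 4.76 FPKM in IL-10- libraries, and every IL-10+ value is above every IL-10- value. Defining B-cell genes were abundant in every library, while the summed FPKM of 5 T-cell markers was 0.033 to 0.153 in IL-10+ and 0.041 to 0.178 in IL-10- libraries and that of 5 myeloid markers was 0.387 to 0.978 in IL-10+ and 0.653 to 1.31 in IL-10- libraries.

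The 2 libraries of a replicate number shared their deviations from the group means, so calls were also counted with the number as a block. Levels of complex I genes ranged more widely over the numbers than they changed between the sorted groups. In 40 of the 44 tested members (90.9%) the range of the 4 number means exceeded the size of the group change, which held for 71.5% of all tested genes. The median range over numbers was 0.32 log2 units for the members, beside a median absolute group change of 0.064. Over all tested genes these medians were 0.30 and 0.16. A range of 4 means and a difference of 2 means are unlike measures, and spread alone can make the range the larger. Number 1 was the lowest number for 38 members (86.4%, against 31.9% of all tested genes), and number 3 or 4 was the highest for 38 (86.4%, against 44.6%). The summed FPKM of all 46 genes was 1340, 1451, 1614 and 1597 in IL-10+ libraries, against 1269, 1486, 1584 and 1565 in IL-10- libraries. The sums of the groups overlap, and in both groups number 1 is the lowest. What the numbers differ in was not tested.

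**Figure D1:**
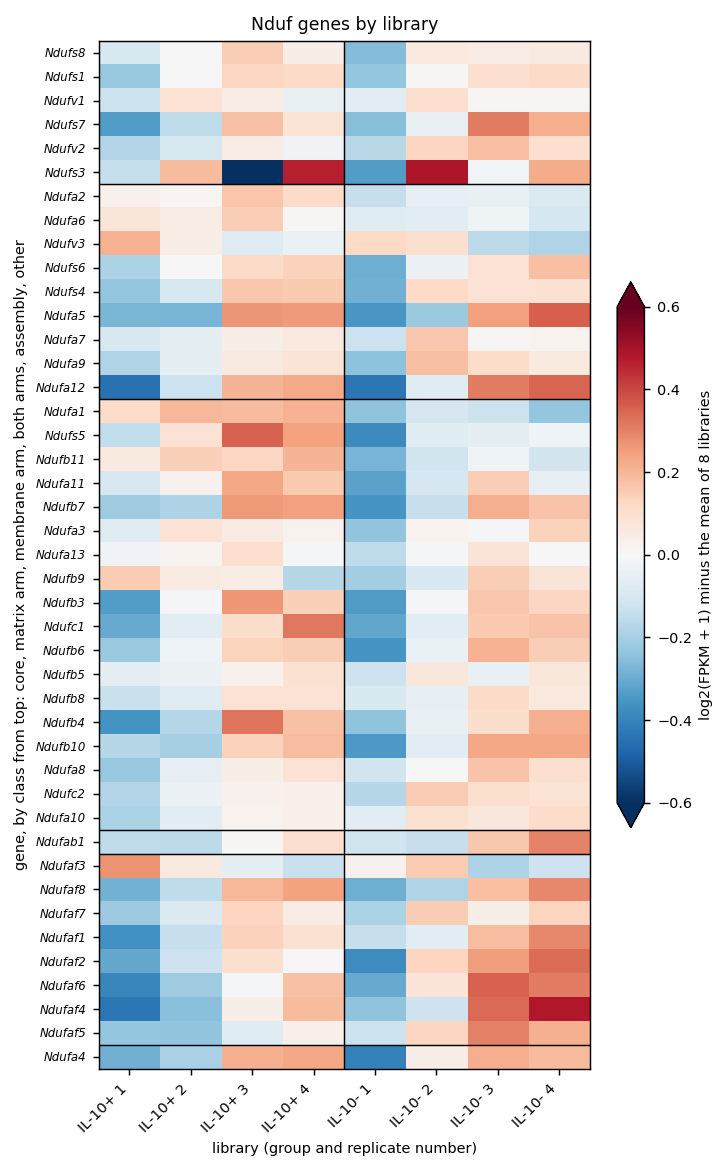
Each row is 1 of 43 tested Nduf genes and each column a library, IL-10+ numbers 1 to 4 on the left and IL-10- numbers 1 to 4 on the right. Colour is log2(FPKM + 1) minus the gene's mean over the 8 libraries, red for higher and blue for lower. Number 1 is blue in both groups for most genes, and 38 of the 44 tested genes were lowest in that number, while few rows, such as Ndufa1 and Ndufb11, split by group.

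Between the groups, most complex I genes showed no difference larger than the spread between libraries. Without the block 2 of the 44 members (4.55%) were called higher in IL-10+ cells, Ndufa1 and Ndufb11, beside 10.6% of all tested genes. None was called lower, beside 9.18% of all tested genes. At an unadjusted p under 0.05 limma gave 4 members higher and 1 lower, beside 1657 higher and 2053 lower of the 11329 tested genes. With the block 6 members (13.6%) were called higher, beside 20.4% of all tested genes, and 8 (18.2%) lower, beside 33.3%. Without number 1, the low number, the block called 6 higher and 6 lower, beside 2045 and 3166 of the 11329 tested genes. Without any other number it called 5 or 6 higher and 2 to 4 lower, beside 1968 to 1974 and 2967 to 3068 tested genes. With the block and median-of-ratios scaling 6 (13.6%) were called higher, beside 23.1%, and 3 (6.82%) lower, beside 26.6%. All the members called higher were accessory subunits. Of the 8 called lower with the block, 3 encode core subunits, 1 an accessory subunit and 4 assembly factors, and the 3 that stayed called under the second scaling encode assembly factors. In bulk RNA, fewer cells with a transcript and less of it per cell cannot be told apart.

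By direction, 7 members (15.9%) were higher in IL-10+ than in IL-10- cells in all 4 numbers, beside 24.3% of all tested genes, and 12 (27.3%) were lower in all 4, beside 40.4%. The 8 values did not overlap between the groups for 4 tested members higher in IL-10+ cells (9.09%), beside 12.2% of all tested genes, and for 1 lower (2.27%), beside 13% of all tested genes. The median log2 change was -0.096 over the 7 core subunits, 0.021 over the 28 tested accessory subunits and -0.15 over the 8 assembly factors, beside -0.057 over all tested genes. Under median-of-ratios scaling these medians were -0.055, 0.061 and -0.11, beside -0.022 over all tested genes. The median of all 44 members was -0.016 and took the other sign under that scaling, at 0.024. Without the block the accessory median took the other sign when IL-10+ replicate 3 (-0.025), IL-10+ replicate 4 (-0.026) or IL-10- replicate 1 (-0.068) was left out. The core median was -0.021, -0.042, -0.047, -0.031 and -0.060 without IL-10+ replicate 1, IL-10+ replicate 3, IL-10- replicate 2, IL-10- replicate 3 and IL-10- replicate 4 in turn. The assembly median was -0.064 without IL-10+ replicate 1, -0.26 without IL-10- replicate 1 and -0.072 without IL-10- replicate 4. Core, accessory and assembly medians were not tested against each other.

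**Figure D2:**
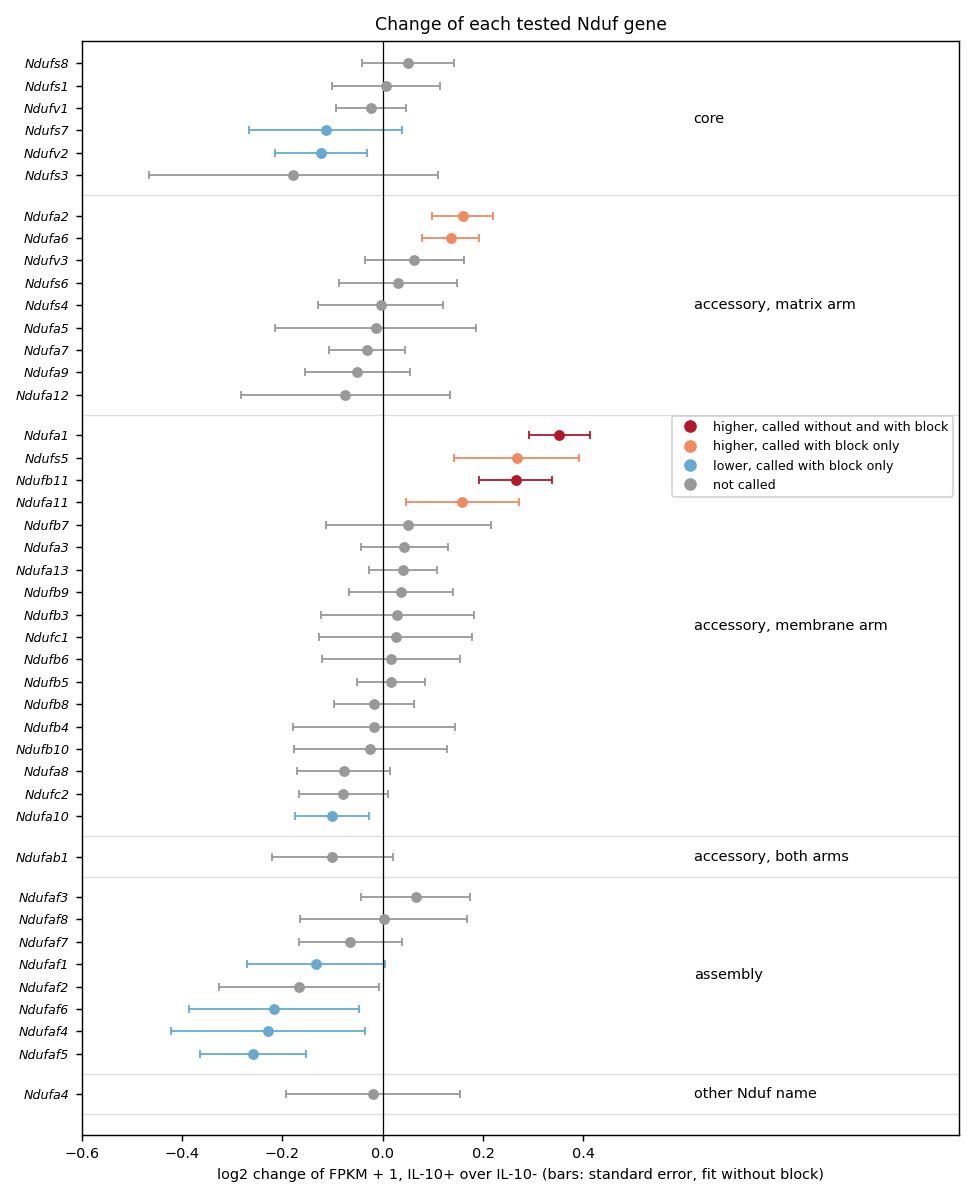
Points are log2 changes of FPKM + 1, IL-10+ over IL-10-, of 43 tested genes by class, with bars of 1 standard error from the fit without the block (n = 4 libraries per group). Dark red marks the 2 genes called in both fits, orange the further 4 called higher and blue 7 called lower with the block only. Most points lie within 0.1 of 0, the membrane arm holds the 3 highest points and the assembly class the 3 lowest.

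**Figure D3:**
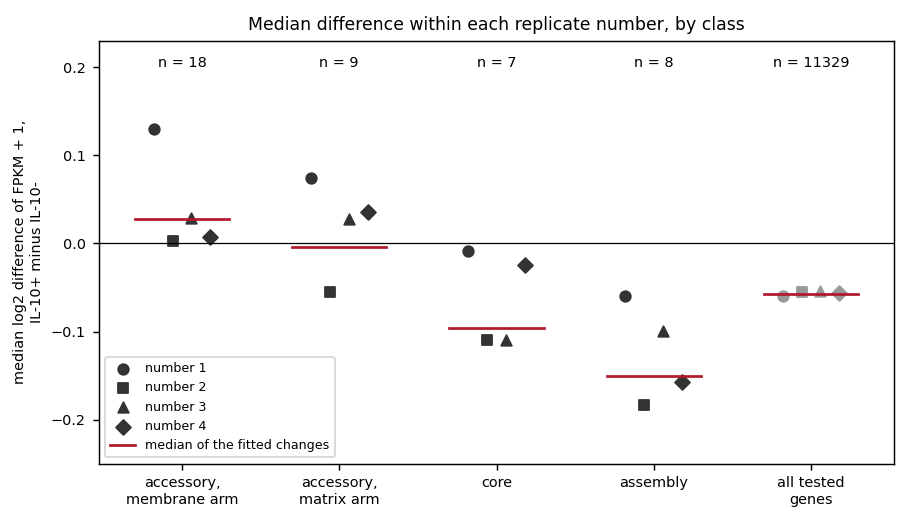
Each symbol is the median log2 difference of FPKM + 1 within 1 replicate number, IL-10+ minus IL-10-, for the genes of a class, and the red line is the median of the fitted changes. The medians of the assembly factors lie below 0 in all 4 numbers, as do those of the 7 core genes and of all tested genes. Those of the membrane-arm accessory genes lie above 0 in all 4, and those of the matrix-arm ones on both sides. The core median of number 1 (-0.0090) and the membrane-arm median of number 2 (0.0026) lie close to 0.

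The 7 core subunits differed little between the groups, with log2 changes from -0.18 to 0.050. Without the block 0 of 7 were called. None had an unadjusted p under 0.05 in limma, where 1657 of the 11329 tested genes were higher and 2053 lower. With the block 3 were called lower, Ndufs7 and Ndufv2 among them, where 33.3% of all tested genes were. None of the 3 stayed called with the block and median-of-ratios scaling.

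At the entry of the chain, Ndufv1 binds NADH and the flavin that takes its electrons. It had 37.99, 44.2, 43.03 and 40.4 FPKM in IL-10+ libraries, against 39.7, 44.7, 41.9 and 41.9 FPKM in IL-10- libraries, and its log2 change was -0.023 ± 0.070 (SE). Its partner Ndufv2, which carries an iron-sulfur cluster, had 38.3, 40.5, 44.8 and 42.8 FPKM in IL-10+ libraries, against 38.6, 47.5, 49.4 and 46.6 FPKM in IL-10- libraries. Number 1 was nearly equal in the groups and the other numbers were lower in IL-10+ cells. Its log2 change was -0.12 ± 0.091 (SE; limma adjusted p = 0.394, and 0.0451 with the block), and the call ended without number 2, 3 or 4 (adjusted p of up to 0.132). Ndufs1, the largest subunit, carries several of the clusters and had 9.62, 11.5, 12.6 and 12.5 FPKM in IL-10+ libraries, against 9.59, 11.5, 12.3 and 12.5 FPKM in IL-10- libraries. Each IL-10+ library matched the IL-10- library of the same number within 0.025 log2 units.

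Closer to ubiquinone, Ndufs7, which holds the terminal cluster, had 27.9, 31.9, 40.2 and 37.7 FPKM in IL-10+ libraries, against 29.6, 34.4, 44.1 and 41.5 FPKM in IL-10- libraries. The groups overlap, yet in each number the IL-10+ library was lower, with log2 differences of -0.080, -0.11, -0.13 and -0.14. Its limma adjusted p was 0.654 without and 0.0125 with the block. That call ended without number 3 or 4 (adjusted p = 0.055 and 0.0565) and with median-of-ratios scaling added (0.05601), and it held under the scaling without immunoglobulin and mitochondrial genes (0.0476).

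Ndufs8, another cluster-bearing subunit and the most abundant member by FPKM, had 92.5, 98.8, 109 and 101 FPKM in IL-10+ libraries, against 82.1, 103, 101 and 102 FPKM in IL-10- libraries. The IL-10- library of number 1 stands below the rest, and the groups overlap. Ndufs3, a core subunit without a cluster, had 2.398, 3.27, 1.05 and 4.17 FPKM in IL-10+ libraries, against 1.97, 4.24, 2.71 and 3.37 FPKM in IL-10- libraries. It averaged 2.72 ± 1.33 FPKM in IL-10+ cells and 3.07 ± 0.965 FPKM in IL-10- cells (n = 4 each, SD), and its IL-10+ library of number 3 rests on 66 reads. The processed pseudogene Gm12251 carries 354 of the 50-base words of Ndufs3 and had 2.95 to 5.10 FPKM, so the share of reads counted to each copy is uncertain.

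Among accessory subunits of the membrane arm, 18 of 19 were tested. Without the block 2 were called higher, Ndufa1 and Ndufb11, beside 10.6% of all tested genes. With the block 4 of the 18 were called higher, those 2 with Ndufs5 and Ndufa11, beside 20.4% of all tested genes. Ndufa10 was called lower, 1 of the 18, beside 33.3%. The median change of the 18 was 0.028. Both genes called without the block lie on chromosome X, the only members that do. Ndufs5, Ndufa11, Ndufa2 and Ndufa6, which were also called higher with the block, lie on other chromosomes. A link of the change to the chromosome was not tested.

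Ndufa1 encodes a small membrane-anchored subunit that is needed for assembly in hamster cells. The gene (ENSMUSG00000016427, GRCm38 chrX:37187588-37191163, minus strand) had 62.1, 66.2, 65.6 and 66.5 FPKM in IL-10+ libraries, against 48.4, 53.5, 52.6 and 48.8 FPKM in IL-10- libraries. Every IL-10+ value is above every IL-10- value, and no other tested member had a larger log2 change. It averaged 65.1 ± 2.01 FPKM in IL-10+ cells and 50.8 ± 2.58 FPKM in IL-10- cells (n = 4 each, SD), a ratio of 1.28. Its log2 change was 0.35 ± 0.061 (SE; limma adjusted p = 0.00417, and 0.000511 with the block), higher in 4 of 4 numbers. The exact two-sided permutation p was 0.029, the smallest that 4 against 4 libraries allow. The call ended in 1 alternative, the fit within numbers 1 and 2 alone (adjusted p = 0.12), at a log2 change of 0.33.

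Ndufb11 (ENSMUSG00000031059, chrX:20615326-20617619, minus strand), a single-pass subunit of the membrane arm, had 79.2, 84.2, 83.2 and 87.8 FPKM in IL-10+ libraries, against 62.5, 70.03, 75.05 and 70.3 FPKM in IL-10- libraries. The groups did not overlap, and the smallest difference was in number 3. It averaged 83.6 ± 3.52 FPKM in IL-10+ cells and 69.5 ± 5.17 FPKM in IL-10- cells (n = 4 each, SD), a ratio of 1.203. Its log2 change was 0.26 ± 0.072 (SE; limma adjusted p = 0.0331, and 0.00274 with the block). Leaving out 1 library ended the call without the block in 6 of 8 fits, all but those without IL-10+ replicate 1 or IL-10- replicate 3, with an adjusted p of up to 0.0877, while with the block it held without any 1 number (highest adjusted p = 0.0159). Exons of Rbm10 on the opposite strand overlap 12.9% of the gene. Rbm10 had 46.9, 50.3, 53.2 and 56.6 FPKM in IL-10+ libraries, against 46.5, 50.7, 52.3 and 52.7 FPKM in IL-10- libraries, and the labels do not say whether reads were counted by strand.

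The promoters of these 2 genes are shown because they are the members called in both fits, each from 250 bases before to 50 after the RefSeq start site (GRCm38.p6, minus strand), at chrX:37191189-37191488 for Ndufa1 and chrX:20617570-20617869 for Ndufb11. Neither window holds any of the 3 motifs searched below, so no letters are in capitals. The RefSeq start site of Ndufa1 lies upstream of the GENCODE gene given above.
Ndufa1: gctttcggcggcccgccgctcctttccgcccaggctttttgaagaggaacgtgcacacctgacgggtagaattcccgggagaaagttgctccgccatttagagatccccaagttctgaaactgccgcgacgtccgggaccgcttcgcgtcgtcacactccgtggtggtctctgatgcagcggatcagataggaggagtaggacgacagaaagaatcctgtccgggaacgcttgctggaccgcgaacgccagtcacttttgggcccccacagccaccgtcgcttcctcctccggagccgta
Ndufb11: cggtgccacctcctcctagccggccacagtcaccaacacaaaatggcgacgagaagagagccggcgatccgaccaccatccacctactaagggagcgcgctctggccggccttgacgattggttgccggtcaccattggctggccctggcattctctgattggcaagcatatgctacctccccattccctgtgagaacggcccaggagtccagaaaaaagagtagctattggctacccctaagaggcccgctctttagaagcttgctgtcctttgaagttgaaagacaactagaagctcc

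Ndufs5 sits on the intermembrane-space side and is held together by disulfide bonds. It had 36.9, 43.7, 52.7 and 48.7 FPKM in IL-10+ libraries, against 31.2, 38.9, 39.5 and 40.3 FPKM in IL-10- libraries. Numbers 1 to 4 were each higher in IL-10+ cells, but the groups overlap, with number 1 low in both. It averaged 45.5 ± 6.800 FPKM in IL-10+ cells and 37.5 ± 4.21 FPKM in IL-10- cells (n = 4 each, SD), and the log2 change was 0.27 ± 0.13 (SE; limma adjusted p = 0.179, and 0.00435 with the block). The pseudogene BC002163 shares 196 of its 50-base words and had 0.628 to 1.60 FPKM. With the reads of both added, the log2 differences per number were 0.25, 0.17, 0.41 and 0.27, beside 0.23, 0.16, 0.41 and 0.27 for Ndufs5 alone.

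Ndufa11, a membrane subunit near the junction of the arms, had 11.7, 12.8, 14.9 and 14.2 FPKM in IL-10+ libraries, against 9.88, 11.7, 14.1 and 12.1 FPKM in IL-10- libraries. It was called with the block only (log2 change 0.16 ± 0.11, SE; limma adjusted p = 0.0136), and without number 4 that call ended (adjusted p = 0.0576). Ndufa10, a subunit with the fold of a nucleoside kinase, had 32.4, 35.3, 37.6 and 37.8 FPKM in IL-10+ libraries, against 35.3, 39.6, 38.9 and 40 FPKM in IL-10- libraries. It showed the lowest log2 change of the accessory class (-0.10 ± 0.074, SE) and was lower in all 4 numbers. Its limma adjusted p was 0.386 without and 0.0324 with the block, and 0.134 with the block and median-of-ratios scaling. The call ended without number 1, 2 or 4 (adjusted p of up to 0.102).

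Ndufc2, another subunit of this arm, had 47.9, 52.7, 55.1 and 55.3 FPKM in IL-10+ libraries, against 47.9, 60.2, 57.96 and 57.3 FPKM in IL-10- libraries and was called in no fit with all 8 libraries. Ndufb2 was below the filter, with 0.422, 0.343, 0.566 and 0.679 FPKM in IL-10+ libraries, against 0.539, 0.386, 0.537 and 0.652 FPKM in IL-10- libraries. These values rest on 54 to 110 reads, and 7.94% of its exons overlap other genes. The other 12 tested membrane-arm subunits, Ndufa3, Ndufa8, Ndufa13, Ndufb3 to Ndufb10 and Ndufc1, had log2 changes between -0.078 and 0.051 and were called in no fit with all 8 libraries.

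The matrix arm has 9 accessory subunits, all tested. Without the block 0 were called. At an unadjusted p under 0.05 in limma 2 were higher and 0 lower, beside 1657 higher and 2053 lower of the 11329 tested genes. With the block 2 of the 9, Ndufa2 and Ndufa6, were called higher, beside 20.4% of all tested genes. The median change of the 9 was -0.0041 and took the other sign, 0.035, under median-of-ratios scaling. Ndufa2, which has a thioredoxin-like fold and is the most abundant accessory member by FPKM, had 95.01, 94.04, 105 and 101 FPKM in IL-10+ libraries, against 84.7, 90.1, 90.5 and 87.8 FPKM in IL-10- libraries. The groups did not overlap, with a gap in number 2 that is smaller than in the others. Its log2 change was 0.16 ± 0.062 (SE; limma adjusted p = 0.109, and 0.01097 with the block), and it was also called without the block under scaling without immunoglobulin and mitochondrial genes (adjusted p = 0.0482).

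Ndufa6, a protein of the LYR family, binds the acyl carrier protein Ndufab1. It had 65.6, 64.5, 69.1 and 62.8 FPKM in IL-10+ libraries, against 59.2, 59.8, 61.2 and 57.9 FPKM in IL-10- libraries. The groups did not overlap, and the spread was small, with a SD of 2.69 in IL-10+ and 1.36 in IL-10- cells (FPKM). Its log2 change was 0.14 ± 0.057 (SE; limma adjusted p = 0.139, and 0.00686 with the block). Ndufab1 itself, which is present in both arms and is the least abundant tested accessory gene, had 1.698, 1.69, 2.01 and 2.22 FPKM in IL-10+ libraries, against 1.76, 1.73, 2.35 and 2.69 FPKM in IL-10- libraries. It was lower in all 4 numbers and called in no fit with all 8 libraries. The other 7 matrix-arm members, Ndufa5, Ndufa7, Ndufa9, Ndufa12, Ndufs4, Ndufs6 and Ndufv3, had log2 changes between -0.074 and 0.063, and none was called in a fit with all 8 libraries.

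**Figure D4:**
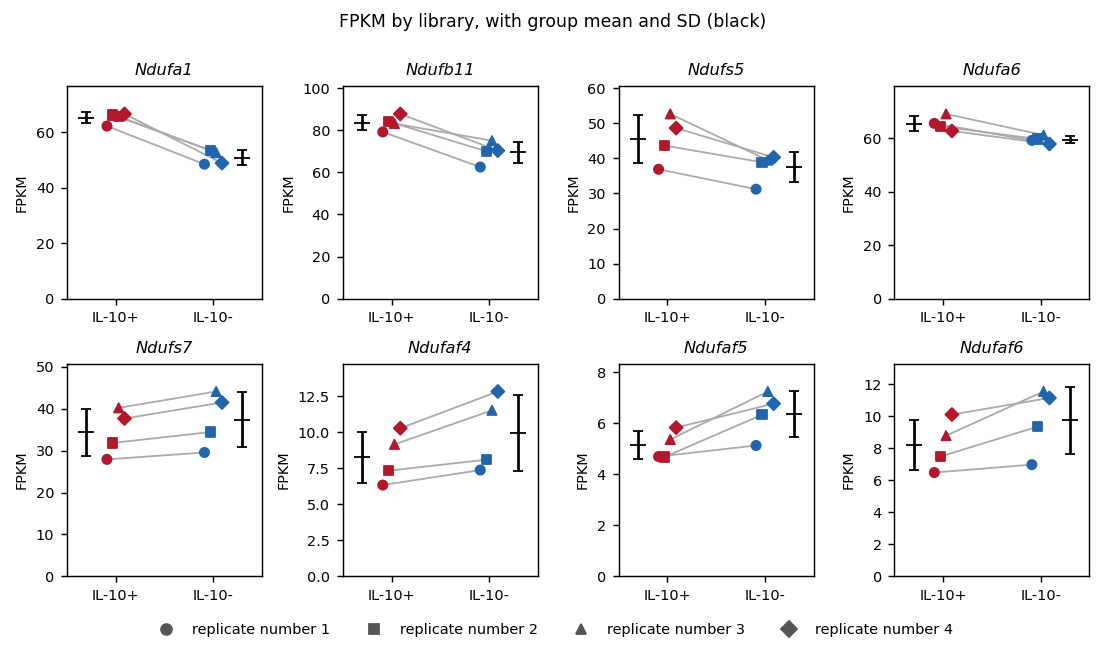
FPKM of 8 Nduf genes in each library, IL-10+ left in red and IL-10- right in blue, with lines joining libraries of the same number and black bars for the group mean and SD (n = 4). In the top row (Ndufa1, Ndufb11, Ndufs5, Ndufa6) every line falls to the right, and in the bottom row (Ndufs7, Ndufaf4, Ndufaf5, Ndufaf6) every line climbs to the right while the group values overlap.

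Assembly factors were the class with the lowest median, and they hold the 3 lowest changes of all members. Without the block 0 of 8 were called. At an unadjusted p under 0.05 in limma 0 were higher and 1 lower, beside 1657 higher and 2053 lower of the 11329 tested genes. With the block 4 were called lower, Ndufaf1, Ndufaf4, Ndufaf5 and Ndufaf6, where 33.3% of all tested genes were. With median-of-ratios scaling added, 3 of them, all but Ndufaf1, were still called, where 26.6% of all tested genes were. Their roles are known mostly from human cells.

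Ndufaf5, an enzyme that hydroxylates an arginine of Ndufs7, had 4.696, 4.68, 5.36 and 5.83 FPKM in IL-10+ libraries, against 5.13, 6.33, 7.25 and 6.77 FPKM in IL-10- libraries. It averaged 5.14 ± 0.5596 FPKM in IL-10+ cells and 6.37 ± 0.907 FPKM in IL-10- cells (n = 4 each, SD), a ratio of 0.807, and was lower in all 4 numbers, by log2 differences of -0.11, -0.37, -0.37 and -0.19. The fitted log2 change was -0.26 ± 0.11 (SE; limma adjusted p = 0.1297, and 0.0135 with the block). Leaving out the IL-10- library of number 1 gave a call without the block (adjusted p = 0.0336), and leaving out number 2 or 3 ended the call with it (adjusted p = 0.0539 and 0.0506). Ndufaf8, a small partner that stabilises Ndufaf5, had 12.4, 13.7, 17.7 and 18.3 FPKM in IL-10+ libraries, against 12.3, 13.4, 17.6 and 18.97 FPKM in IL-10- libraries, with a log2 change of 0.0016 ± 0.17 (SE).

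Ndufaf4 acts with Ndufaf3 on early intermediates of the quinone module. It had 6.34, 7.33, 9.16 and 10.3 FPKM in IL-10+ libraries, against 7.38, 8.099, 11.5 and 12.8 FPKM in IL-10- libraries. Numbers 3 and 4 are high in both groups and the groups overlap, but each IL-10+ value is below its IL-10- counterpart. The log2 change was -0.23 ± 0.19 (SE; limma adjusted p = 0.459). With the block the SE was 0.042 and the adjusted p 0.00637, and that call held without any 1 number (highest adjusted p = 0.0309). Ndufaf3 had 7.28, 6.13, 5.61 and 5.26 FPKM in IL-10+ libraries, against 6.002, 6.63, 5.05 and 5.29 FPKM in IL-10- libraries, with number 1 the highest in IL-10+ cells and number 2 in IL-10- cells, and it was called in no fit with all 8 libraries.

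Ndufaf6, which belongs to the squalene and phytoene synthase family, had 6.48, 7.47, 8.78 and 10.1 FPKM in IL-10+ libraries, against 6.97, 9.34, 11.5 and 11.1 FPKM in IL-10- libraries. It was lower in IL-10+ cells in all 4 numbers (log2 change -0.22 ± 0.17, SE; limma adjusted p = 0.421, and 0.0196 with the block). That call ended without number 2 or number 3 (adjusted p = 0.0756 and 0.0606). Ndufaf1, which acts on the membrane arm, had 10.8, 12.7, 15.6 and 15.1 FPKM in IL-10+ libraries, against 12.7, 13.4, 16.2 and 17.4 FPKM in IL-10- libraries. Its adjusted p with the block was 0.0401, and 0.132 when median-of-ratios scaling was added. The call ended without number 1, 2 or 4 (adjusted p of up to 0.136).

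Ndufaf2, a paralog of Ndufa12 that acts late in assembly, had 3.63, 4.26, 5.13 and 4.72 FPKM in IL-10+ libraries, against 3.41, 5.26, 5.81 and 6.22 FPKM in IL-10- libraries. Number 1 was higher in IL-10+ cells and the others lower, and 65.7% of its merged exons overlap the gene B230220B15Rik on the opposite strand. Ndufaf7, a methyltransferase that acts on a subunit of the complex, had 11.2, 12.3, 14.5 and 13.6 FPKM in IL-10+ libraries, against 11.4, 14.7, 13.5 and 14.5 FPKM in IL-10- libraries. Neither gene was called with or without the block over all 8 libraries, and Ndufaf2 was called lower with the block when number 1 was left out (adjusted p = 0.0208).

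The promoters of Ndufaf4 and Ndufaf5 are shown because these genes had the lowest changes of the members that stayed called with the block and median-of-ratios scaling (RefSeq, GRCm38.p6, plus strand, chr4:24897833-24898132 and chr2:140170396-140170695). Capitals mark a match to CGCANGCG, the core letters of the site of NRF1, a regulator of nuclear respiratory genes. In both windows the 8 letters are their own reverse complement, so the stretch matches on both strands. It lies before the start site in Ndufaf4 and after it in Ndufaf5.
Ndufaf4: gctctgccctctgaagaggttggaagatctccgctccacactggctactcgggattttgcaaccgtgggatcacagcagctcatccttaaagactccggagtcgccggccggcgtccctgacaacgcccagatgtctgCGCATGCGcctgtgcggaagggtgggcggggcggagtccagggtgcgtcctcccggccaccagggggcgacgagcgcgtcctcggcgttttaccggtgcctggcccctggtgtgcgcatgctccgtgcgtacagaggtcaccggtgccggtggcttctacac
Ndufaf5: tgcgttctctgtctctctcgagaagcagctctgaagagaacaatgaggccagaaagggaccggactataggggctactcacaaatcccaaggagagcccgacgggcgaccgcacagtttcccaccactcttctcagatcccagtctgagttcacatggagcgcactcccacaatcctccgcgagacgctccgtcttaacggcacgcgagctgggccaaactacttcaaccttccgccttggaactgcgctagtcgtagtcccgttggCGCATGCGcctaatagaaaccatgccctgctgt

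A RefSeq promoter was found for 40 of the 46 members, and 3 motifs were searched on both strands of each, with overlaps between motifs allowed. CGCANGCG (NRF1) was present in 13 (32.5%), against 9.22% of the promoters of the 27025 genes that the RefSeq promoter set holds. AAGATGGCG (YY1) was present in 6 (15%, against 1.64%) and CCGGAAGT (ETS factors such as the GABP complex) in 1 (2.5%, against 4.31%). At least 1 of the 3 was present in 19 (47.5%, against 13.8%). NRF1 letters were found in 10 of 27 accessory, 3 of 7 assembly and 0 of 5 core promoters. They were found in 3 of the 5 members with a promoter that were called higher with the block, 2 of the 6 called lower and 8 of the 29 not called. A match is a description of the letters in the window.

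Genes that belong to the pathway without an Nduf name were read from lists. Of the 7 core subunits encoded in mitochondrial DNA, 0 were called without the block. At an unadjusted p under 0.05 in limma 0 were higher and 1 lower, beside 1657 higher and 2053 lower of the 11329 tested genes. With the block 6 were called lower, beside 33.3% of all tested genes. Under the added median-of-ratios scaling 4 were called lower, beside 26.6%. Their median log2 change was -0.17. The most abundant, mt-Nd1, had 2580.3, 2046, 2566 and 2529 FPKM in IL-10+ libraries, against 2750.0, 2276, 2777 and 2699 FPKM in IL-10- libraries and was lower in each number (limma adjusted p = 0.477, 0.0372 with the block, and 0.0974 with median-of-ratios scaling added). mt-Nd4l, which overlaps mt-Nd4 and is therefore uncertain, had 2.71, 1.57, 2.92 and 2.05 FPKM in IL-10+ libraries, against 2.89, 4.02, 6.46 and 3.595 FPKM in IL-10- libraries, the largest change of the list. Mitochondrial genes held 4.72% to 5.73% of all FPKM in IL-10+ and 5.38% to 6.90% in IL-10- libraries.

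Of 10 tested assembly factors with other names, 2 were called lower without the block, beside 9.18% of all tested genes, and 5 with it, beside 33.3%. With median-of-ratios scaling added 4 were called lower, beside 26.6%, and 1, Dmac1, was called higher (adjusted p = 0.0287), beside 23.1%. Dmac2, a factor of the membrane arm, had 14.04, 12.9, 10.2 and 10.02 FPKM in IL-10+ libraries, against 20.98, 17.7, 14.95 and 14.3 FPKM in IL-10- libraries (log2 change -0.49 ± 0.15, SE; limma adjusted p = 0.0471). Its groups did not overlap, though the highest IL-10+ value lies just below the lowest IL-10- value. Nubpl, which delivers iron-sulfur clusters to complex I, had 1.39, 1.64, 1.38 and 1.61 FPKM in IL-10+ libraries, against 1.85, 2.103, 1.94 and 2.02 FPKM in IL-10- libraries (log2 change -0.25 ± 0.074, SE; limma adjusted p = 0.0462), also with no overlap.

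Of 9 tested regulators of nuclear respiratory genes, 3 were called lower without the block, beside 9.18% of all tested genes, and 8 with it, beside 33.3%. When median-of-ratios scaling was added 4 were called lower, beside 26.6%. The coactivator Ppargc1b had 2.04, 1.86, 2.34 and 2.704 FPKM in IL-10+ libraries, against 3.01, 3.09, 3.45 and 3.79 FPKM in IL-10- libraries (log2 change -0.42 ± 0.10, SE; limma adjusted p = 0.0185). Its nuclear receptor partner Esrra had 8.27, 7.78, 7.88 and 8.18 FPKM in IL-10+ libraries, against 8.74, 9.34, 10.8 and 10.9 FPKM in IL-10- libraries (adjusted p = 0.0407), and the zinc-finger factor Yy1 had 24.1, 24.3, 25.8 and 26.1 FPKM in IL-10+ libraries, against 27.8, 29.6, 30.6 and 31.6 FPKM in IL-10- libraries (adjusted p = 0.0278). For each of these 3 genes the groups did not overlap. Nrf1, whose letters were searched in the promoters, had a log2 change of -0.11 ± 0.062 (SE; limma adjusted p = 0.241, 0.0228 with the block, and 0.0813 with median-of-ratios scaling added).

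Plasmablast markers and immunoglobulin RNA moved with the sort. All 6 plasmablast markers rose, and their summed FPKM was 1331 to 1357 in IL-10+ and 315 to 442 in IL-10- libraries. Immunoglobulin genes held 13.2% to 16.9% of all FPKM in IL-10+ and 3.73% to 4.73% in IL-10- libraries. Such shares enter FPKM through the library total. Under scaling without immunoglobulin and mitochondrial genes the block called 6 of the 44 tested members higher and 4 lower. Of all 11329 tested genes, the same fit called 2550 higher and 3116 lower. The part of plasmablasts in the changes of the Nduf genes was not tested.

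Transcript length moved with the sign of the change among the members. The split was chosen after the data were seen, at 800 bases of the principal coding transcript. Of 18 members below it, 5 (27.8%) were called higher and 0 lower with the block, and their median change was 0.030 log2 units. Among all tested protein-coding genes below it 18.2% were called higher and 22.9% lower. Of 26 members at or above it, 1 (3.85%) was called higher and 8 (30.8%) lower, with a median of -0.058, beside 20.6% higher and 37.1% lower among all such genes. Over the 44 members, Spearman's rho between length and log2 change was -0.47, as a description of genes that share their libraries. Over 9416 tested protein-coding genes rho was 0.00046, and the medians below and above 800 bases were -0.024 and -0.065. Of the 28 tested accessory members 15 were below 800 bases, against 2 of the 8 assembly factors and 0 of the 7 core members. Within the accessory class, 5 of the 15 shorter members were called higher and 0 lower with the block (median 0.036), against 1 higher and 1 lower of the 13 longer ones (median -0.014).

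The gene length behind an FPKM also sets the order of levels between members. The authors' values gave whole reads in all 8 libraries with the merged exon length of 35 members, and the other 11 did not, so their length is not known. Merged exons were up to 7.26 times as long as the principal transcript, with a median of 1.46, and at least 2 times as long in 12 members. If all reads came from the principal transcript, Ndufb7 would stand at 133 FPKM in place of 18.3, Ndufb8 at 91.6 in place of 19.8, Ndufb5 at 31.1 in place of 6.71, and Ndufs1 at 34.95 in place of 11.5 (means of 8 libraries). The low level of Ndufb2 (0.664), Ndufab1 (3.99), Ndufb9 (5.48) and Ndufs3 (6.03) stayed below that of the next subunit with a known length, Ndufc1 (14.3). Reads counted elsewhere may lower these levels, which was not tested. Ndufab1 shares 369 and 311 of its 50-base words with the processed pseudogenes Gm4459 and Ndufab1-ps. Gm4459 held 100 to 173 reads per library, beside 320 to 555 for Ndufab1. Exons of Gm49356 on the same strand overlap 19.5% of Ndufb9.

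**Figure D5:**
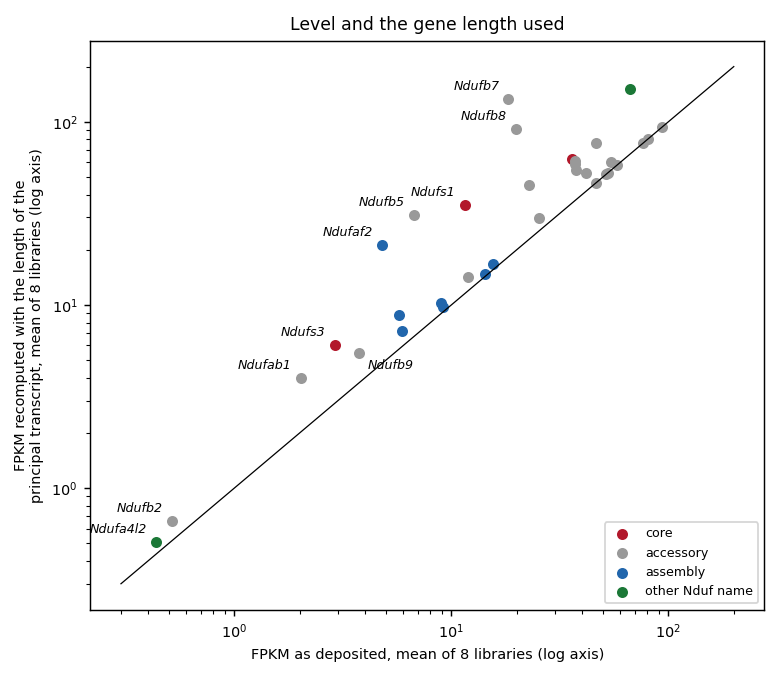
Mean FPKM of 8 libraries as deposited (horizontal, log axis) against the same reads divided by the principal transcript's length (vertical, log axis) for 34 members whose length was known, with the line of equality. Points far above the line, such as Ndufb7 and Ndufb8, have merged exons much longer than the principal transcript.

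The 2 genes with another role had these values. Ndufa4, now counted to complex IV, had 53.6, 57.3, 76.1 and 77.3 FPKM in IL-10+ libraries, against 49.3, 67.2, 76.4 and 75.1 FPKM in IL-10- libraries and a log2 change of -0.019 ± 0.17 (SE). Ndufa4l2, a paralog known from hypoxic human cells, was below the filter, with 0.5003, 0.588, 0.506 and 0.555 FPKM in IL-10+ libraries, against 0.489, 0.288, 0.324 and 0.213 FPKM in IL-10- libraries. These values rest on 15, 18, 16 and 17 reads in IL-10+ libraries, against 15, 9, 10 and 7 reads in IL-10- libraries. Every IL-10+ FPKM is above every IL-10- FPKM (exact two-sided permutation p = 0.029), though number 1 had the same reads in both groups. The gene entered a test across genes only in the fit without the filter, where it was not called.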

How the data were processed

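RNA was sequenced from 8 libraries, grouped and numbered by their titles in the labels. The deposited values are FPKM, made by the authors with HISAT2 2.1.0 and HTSeq 0.6.0 on build mm10, per the submitters' processing notes. The annotation release is not stated there, nor is the strand setting (not given in the sources used here). Per the labels' protocols, RNA was taken with Trizol and libraries were made with a NEBNext Ultra kit. Names, positions and exon lengths came from GENCODE M21 (GRCm38), which held 26550 of the 26589 identifiers and lacked 39. Values multiplied by merged exon length gave whole reads within 0.05 for 93.5% to 93.6% of values per library, so that a single read per kilobase equals 0.0334 to 0.0365 FPKM. Depth thus differs little between libraries.

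From these values, log2(FPKM + 1) was fitted with limma 3.58.1 in R 4.3.3, with a variance trend. The fit took the 11329 genes that reached 1 FPKM in 4 or more libraries, and p-values were adjusted over all of them by Benjamini-Hochberg at 0.05. The pseudocount of 1 understates changes of low genes. The method was tested on simulated data that held no effect shared by a replicate number. The planted changes were larger than that of any tested member. It therefore does not check the small changes called with the block only. Replicate numbers come from the titles, which do not say what they mark. Deviations from the group means correlated between same-numbered libraries at r = 0.712, 0.583, 0.621 and 0.70 for numbers 1 to 4 (at most 0.435 between different numbers), so the numbers were taken to pair the libraries, and the fit with the number as a block stands beside the fit without it. Ratios are ratios of mean FPKM. Exact permutation tests compared 4 with 4 libraries, two-sided. Promoter sequences are from RefSeq (GRCm38.p6).

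Values in every library are given for members called without the block, core subunits, assembly factors, and in the accessory class the 3 highest and 3 lowest changes and the most and least abundant tested gene. Members called with the block only were added after the values were seen. Members, roles and gene lists were chosen with earlier results of these data known. Alternatives were a pseudocount of 0.1, no filter, a filter at 5 FPKM, 2 other scalings, the block, numbers 1 and 2 or 3 and 4 alone, and leaving out each library. Fits with the block without each number and levels by principal transcript length were added after seeing the data. Members were read from the fit over all genes, and 1 core subunit is counted but not reported here by name or value. In addition, 1 listed assembly factor was not found in the table and is not analysed here.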

Additional observations from a re-analysis of the deposited data

Results flagged for a closer look

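In groups of 4 libraries, 92 in all (46 genes in 2 groups), a library was marked where its gap to the nearest other value was above Dixon's 95% critical share of the group's range. Chance marks about 1 in 20 groups, and 3 were marked, all of them low values of IL-10- replicate 1. For Ndufs8, a cluster-bearing core subunit, replicate 1 had 92.5 FPKM in IL-10+ cells and 82.15 FPKM in IL-10- cells, where the other 3 IL-10- libraries had 101.5 to 102.6 FPKM. For Ndufs4, a matrix-arm subunit, it had 14.3 FPKM in IL-10+ cells and 13.7 FPKM in IL-10- cells, where the others had 18.1 to 18.5 FPKM. For Ndufs5 it had 36.9 FPKM in IL-10+ cells and 31.2 FPKM in IL-10- cells, where the others had 38.9 to 40.3 FPKM. In IL-10+ cells replicate 1 was also the lowest library for these 3 genes. What sets number 1 apart was not tested.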

How the results depend on the processing

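With the replicate block, the genes called were 2312 higher and 3771 lower and the members 6 and 8, in place of 1196, 1040, 2 and 0. With median-of-ratios scaling added to the block they were 2616, 3009, 6 and 3, and with the scaling that leaves out immunoglobulin and mitochondrial genes, 2550, 3116, 6 and 4. Within replicates 1 and 2 alone, 786 genes were called higher and 320 lower, and 0 members higher. Within replicates 3 and 4 alone, 1279 genes were called higher and 1368 lower, and 4 members higher. Leaving out 1 library gave 991 to 1168 genes higher, 607 to 954 lower, 1 to 2 members higher and 0 to 1 lower, and medians of -0.11 to -0.021 for core, -0.068 to 0.073 for accessory and -0.26 to -0.064 for assembly genes. With the block, leaving out number 1, 2, 3 or 4 gave 2045, 1973, 1974 or 1968 genes higher, 3166, 3068, 2967 or 2972 lower, 6, 6, 6 or 5 members higher and 6, 2, 3 or 4 lower, and medians of -0.11 to -0.043, 0.00023 to 0.033 and -0.17 to -0.11.

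Over 965 values of single members under the alternatives, 896 kept their side of the threshold, 61 gained a call and 8 lost one, with no called value of opposite sign. The 8 were Ndufa1 (1) and Ndufb11 (7). In 127 values of 25 members an uncalled change took the other sign. The cause of these moves was not tested, and the fits within replicates held fewer libraries. The pseudocount and the filters moved no member count. Depth limits Ndufa4l2, at 7 to 18 reads per library, and Ndufb2, at 54 to 110.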
